A study of Mus musculus with 3 samples.

Results

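Moderately occupied EBF1 regions at the ends of genes were examined: 298 regions of 300 bases, out of 4116 in the deposited table, which overlap into 153 loci out of 2121. They were chosen by their values and their position. Each had a spike-in scaled count above 100 for both EBF1 proteins, not both at or above 200, and a centre no more than 1 kb from the nearer boundary of a protein-coding gene body (GRCm38). Because the rule used both values, the levels and ratios below are a description and carry no test. Of the 298 regions, 4 are exact copies of another.

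EBF1 is a DNA-binding factor that specifies the B lineage, and it binds as a dimer to a short inverted repeat. It is known for switching on genes of the pre-B cell receptor, among them the gene of the signalling chain CD79b, and for opening chromatin in B cell progenitors. Notch1 is the receptor whose freed intracellular domain, NICD1, acts with the DNA-binding protein RBPJ and favours the T lineage over the B lineage.

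All cells were C57BL/6 pro-B cells grown from c-kit+ progenitors of E16.5 Ebf1-/- fetal liver, so their EBF1 came from an introduced construct (pMys-StrepFLAG, with GFP). The first group expressed EBF1wt and the second EBF1E271A, a form with an amino acid substitution. Both groups, and the input, also carried constructs for rtTA-Advanced with tdTomato and for doxycycline-induced FLAG-NICD1. Doxycycline was given at 1 µg/ml for 6 hours, without feeder cells, after differentiation on OP9 stroma, so no group lacks NICD1. EBF1 was then measured by chromatin immunoprecipitation and sequencing, with human BJAB B lymphoma cells mixed in at 1 per 10 mouse cells to set the scale. Each group is 1 library. Replicates are thus missing for every difference, and p-values are not given.

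The regions of the whole table held 515897 unscaled counts for EBF1wt and 1105818 for EBF1E271A, of which the 298 regions held 29525 and 68854. Intervals of single loci are exact binomial (Clopper-Pearson) 95% intervals of these unscaled counts. They cover counting error only and assume scale factors without error. Input was not set beside the regions, so a count alone does not show binding. Ratios are EBF1E271A over EBF1wt.

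Promoter sequence was available for part of the loci and is shown first, because it was no part of the rule. A RefSeq table of GRCm38.p6 holds 300 bases per gene start, from 250 before to 50 after it. The centre of 41 of the 153 loci lay in such a promoter. An EBF motif, CCCNNGGG read on both strands, was present in 28 of these 41 promoters. The stretches below are the bases before the gene start that lie both in the region and in the promoter window, written 5′ to 3′ on the strand of the gene, with the motif in capitals. They were picked after their values were seen, for stretches in no protein-coding gene body and for ratios from low to high. They lie at chr2:32712785-32712995 (minus strand) for Cdk9, chr1:152766378-152766541 (plus strand) for Arpc5, chr7:25477677-25477875 (minus strand) for Ceacam1 and chr12:85219231-85219480 (plus strand) for Eif2b2. Those of Bpgm, F2r and Mterf2 lie at chr6:34476106-34476353 (plus strand), chr13:95618489-95618716 (minus strand) and chr10:85128028-85128277 (minus strand). The Cdk9 stretch overlaps the annotated microRNA genes Mir2861 and Mir3960, and that of Ceacam1 a gene for a long noncoding RNA.
Cdk9: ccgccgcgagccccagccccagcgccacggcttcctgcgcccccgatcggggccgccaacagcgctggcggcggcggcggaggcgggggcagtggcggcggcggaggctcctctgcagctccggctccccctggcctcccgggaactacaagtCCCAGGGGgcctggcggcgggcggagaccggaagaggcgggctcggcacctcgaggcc
Arpc5: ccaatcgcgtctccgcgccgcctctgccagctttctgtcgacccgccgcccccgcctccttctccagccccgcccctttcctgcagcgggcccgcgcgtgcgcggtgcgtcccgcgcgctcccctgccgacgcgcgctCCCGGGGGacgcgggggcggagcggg
Ceacam1: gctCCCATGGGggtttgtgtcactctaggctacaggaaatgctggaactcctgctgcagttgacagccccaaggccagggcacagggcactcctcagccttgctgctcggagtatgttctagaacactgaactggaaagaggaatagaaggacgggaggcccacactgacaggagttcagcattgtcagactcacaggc
Eif2b2: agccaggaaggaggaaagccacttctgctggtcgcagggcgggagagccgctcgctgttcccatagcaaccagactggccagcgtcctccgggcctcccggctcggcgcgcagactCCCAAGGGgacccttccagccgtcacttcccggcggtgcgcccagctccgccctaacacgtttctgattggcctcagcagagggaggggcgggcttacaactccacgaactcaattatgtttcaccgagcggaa
Bpgm: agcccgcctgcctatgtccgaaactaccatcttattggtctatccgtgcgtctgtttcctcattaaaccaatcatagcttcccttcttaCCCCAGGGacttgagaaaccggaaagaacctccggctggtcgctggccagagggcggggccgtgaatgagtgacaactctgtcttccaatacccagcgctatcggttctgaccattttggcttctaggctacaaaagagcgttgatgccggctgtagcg
F2r: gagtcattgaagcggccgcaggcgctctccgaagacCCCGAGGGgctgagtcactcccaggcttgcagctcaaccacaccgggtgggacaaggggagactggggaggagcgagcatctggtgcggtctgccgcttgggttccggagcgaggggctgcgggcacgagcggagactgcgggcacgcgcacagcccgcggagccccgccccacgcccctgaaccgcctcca
Mterf2: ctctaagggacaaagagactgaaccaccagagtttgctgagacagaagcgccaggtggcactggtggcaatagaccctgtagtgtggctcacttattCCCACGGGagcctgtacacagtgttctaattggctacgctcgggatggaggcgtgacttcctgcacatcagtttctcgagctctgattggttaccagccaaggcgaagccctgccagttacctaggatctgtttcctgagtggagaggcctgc

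At Cdk9, the kinase of the elongation factor P-TEFb, EBF1wt had a scaled count of 204.0 and EBF1E271A 139.8. At Arpc5, a subunit of the actin-nucleating Arp2/3 complex, the values were 218.2 and 162.6, and at Ceacam1, an adhesion receptor gene, 185.0 and 150.5. Near-equal pairs were found at Eif2b2, a subunit of a translation initiation factor (180.2 and 172.7), and at Bpgm, bisphosphoglycerate mutase (192.9 and 201.1). EBF1E271A was the higher value at F2r, which encodes a thrombin receptor (159.7 and 194.8), and at Mterf2, a gene of mitochondrial transcription (143.9 and 196.7). The same kind of stretch without the motif is shown for Psma1, a proteasome subunit (chr7:114276164-114276366 (minus strand)), with 205.5 and 153.7, and for Cmtm7, a MARVEL family membrane protein (chr9:114781994-114782174 (minus strand)), with 166.0 and 151.2. No match says only that these letters are not in this window, and bases of a region beyond the window were not searched.
Psma1: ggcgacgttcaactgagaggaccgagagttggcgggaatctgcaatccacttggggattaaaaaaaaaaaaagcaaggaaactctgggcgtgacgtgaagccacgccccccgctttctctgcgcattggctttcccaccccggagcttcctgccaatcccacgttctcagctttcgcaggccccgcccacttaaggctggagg
Cmtm7: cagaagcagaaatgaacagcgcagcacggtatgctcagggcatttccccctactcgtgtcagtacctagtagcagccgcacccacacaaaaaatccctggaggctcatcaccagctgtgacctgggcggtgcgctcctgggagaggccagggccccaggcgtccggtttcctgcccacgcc

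The EBF motif was far more frequent in these promoters than in promoters at large. The 9 letters CCCNNGGGA were found in 24 of the 41 (58.5%, exact 95% interval 42.1 to 73.7), against 7.26% of all 21238 promoters of protein-coding genes. The 8 letters CCCNNGGG were found in 68.3% (51.9 to 81.9), against 15.6%. The members' promoters are rich in CpG, with a median of 20 CpG per 300 bases against 13 in all promoters. The 7630 promoters with at least 20 CpG had a median of 28, above that of the members. Of these, 9.86% held the 9 letters and 23.5% the 8 letters. The same letters in the other order, GGGNNCCC, were found in 9.76% of the members' promoters (2.72 to 23.1) and 13.5% of all promoters.

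Other motifs were searched in the same promoters. GTGGGAA, the RBPJ motif, which shares letters with that of EBF, was found in 3 of 41 (7.32%), against 6.07% of all promoters. The E-box CAGCTG was found in 14.6% against 15.6%, and the PU.1 motif GAGGAAGT in 4.88% against 3.13%. The Runx motif TGTGGTT and the Ets motif CCGGAAGT were each found in 5 of 41 (12.2%, interval 4.08 to 26.2), against 4.71% and 5.15% of all promoters. Both shares of all promoters lay within the members' intervals. Among promoters with at least 20 CpG the shares were 2.24% for Runx, below the members' interval, and 8.90% for Ets, within it. Those promoters are richer in CpG than the members and not matched to them, and the Runx difference was not tested. The GC box GGGCGG, not plotted, at 68.3%, compares with 46.2% of all promoters and 81.4% of those with at least 20 CpG. All letters were searched on both strands, and a match is not a binding site.

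**Figure D1:**
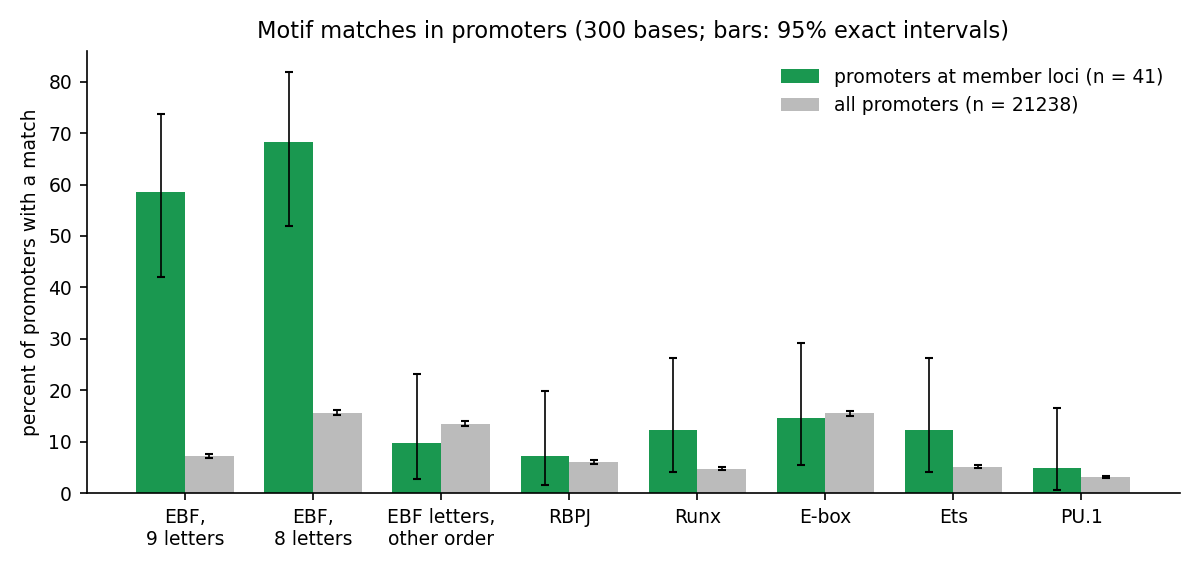
Percent of promoters (y axis) with a match to each motif (x axis) at the 41 member loci whose centre lies in a promoter (green) and in all 21238 promoters (grey), with exact 95% intervals. Both EBF motifs stand at 58.5% and 68.3% in the members, against 7.26% and 15.6%. The members' intervals for RBPJ, Runx, E-box, Ets, PU.1 and the EBF letters in the other order hold the share of all promoters.

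The motif also lay close to the middle of the regions. Among the 28 loci with the 8 letters, the distance from the region's centre to the nearest match had a median of 11 bases, and 23 of 28 lay within 25 bases. It ranged from 1 base at Rmi1, Neil1 and BC028528 to 169 bases at Bhlha15. The letters GGGNNCCC, found in only 4 of the 41 promoters, lay at a median of 22 bases, with 2 of 4 within 25. These loci were also chosen for a centre inside the window searched. The match lay before the gene start at 24 loci and after it at 4. The window searched held 250 bases before the start and only 50 after it. This split therefore cannot show a preference of the motif for either side. For comparison, regions at either gene boundary with both values at or above 200 had the 8 letters in 19 of 21 promoters (90.5%, 69.6 to 98.8). Their median distance was 5 bases. In that class GGGNNCCC was also frequent, in 9 of 21 (42.9%, 21.8 to 66.0). Regions above 100 in EBF1wt alone had the 8 letters CCCNNGGG in 9 of 22 (40.9%, 20.7 to 63.7), and those above 100 in EBF1E271A alone in 3 of 9. The differences between these classes were not tested.

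**Figure D2:**
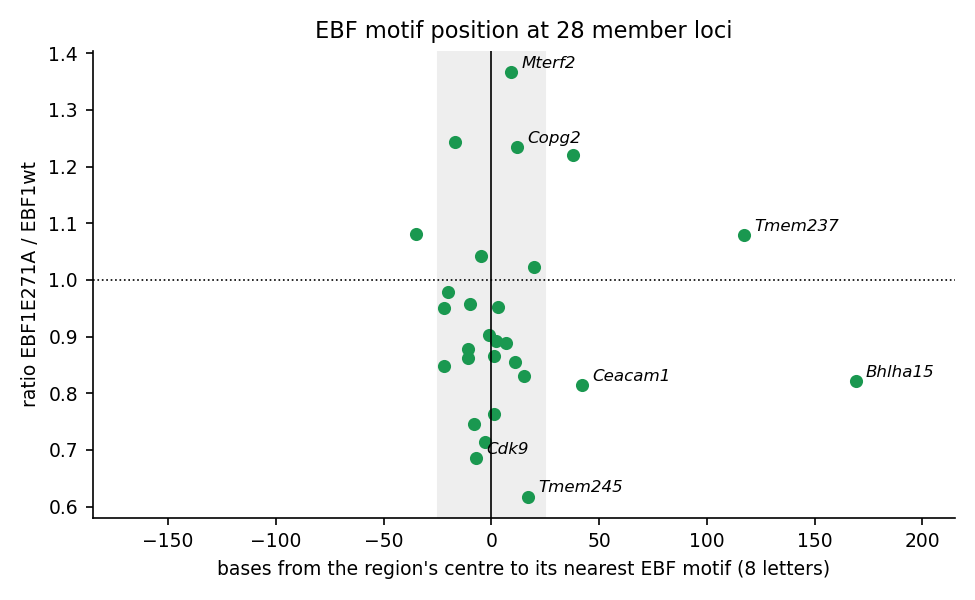
Distance in bases, along the chromosome, from the region's centre to the nearest EBF motif of 8 letters (x axis) against the ratio of EBF1E271A over EBF1wt (y axis), 1 point per locus, for 28 loci. The grey band marks 25 bases to either side and holds 23 points, with Tmem237 and Bhlha15 farthest out.

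The ratios of promoters with and without the motif overlapped. With the 8 letters, the median ratio was 0.890, from 0.618 at Tmem245 to 1.37 at Mterf2. Without them, over 13 loci, it was 0.911, from 0.708 at Clcn7 to 1.27 at Exoc5. At the Exoc5 locus, the promoter searched was that of Ap5m1. The median EBF1wt values were 162.9 with the motif and 139.1 without it, and those of EBF1E271A 148.95 and 134.1. These are values of the rule and are given as a description.

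Most loci lay at gene starts. The promoter table gave the strand of 17492 of the 21900 protein-coding genes, and with it the orientation of the nearest gene at 119 of the 153 loci. Of these, 95 lay at a start and 24 at an end, a share at starts of 79.8% (exact 95% interval 71.5 to 86.6). Of all 317 loci within 1 kb of either gene boundary, whatever their value, 244 had a nearest gene of known strand. Among those 244, the share at starts was 83.2% (77.9 to 87.7). Of the 95, 52 lay before the start and 43 after it, with a median distance of 253 bases, and 56 lay within 300 bases. At the 24 gene ends the median distance was 442 bases, and 1 of these loci was also within 1 kb of another start in the promoter table. Those at ends included Cd37, Il6ra, Cux1, Hnrnpl, Scfd1 and Npm3.

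**Figure D3:**
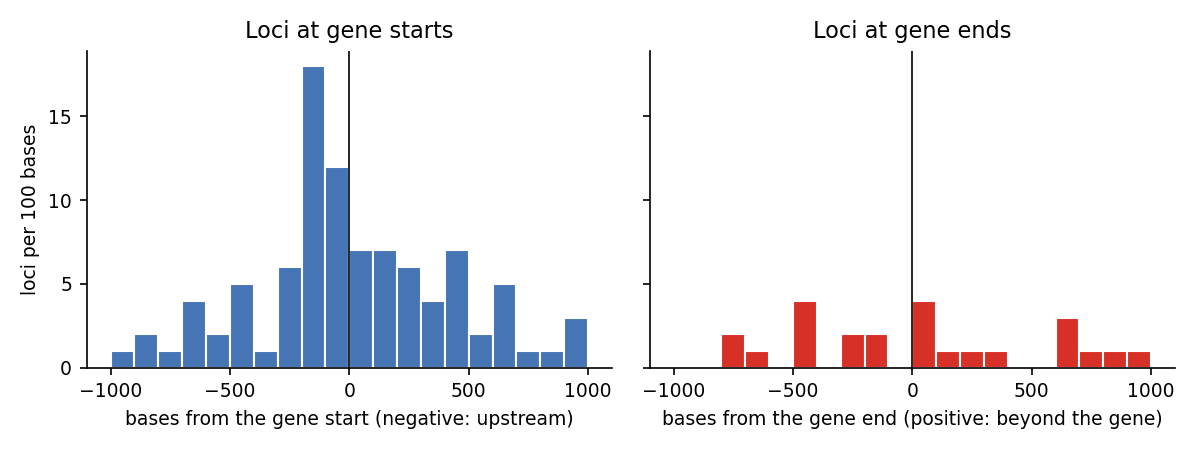
Number of loci per 100 bases (y axis) by distance in bases (x axis) from the start (left, 95 loci) or end (right, 24 loci) of the nearest gene, along its direction of transcription. The tallest bars lie just upstream of gene starts, and the 24 loci at ends show no such peak.

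By chromosomal position, 72 centres lay inside a gene body whose boundary they were nearest to and 81 outside it. The nearest to a gene boundary was Zfat, a zinc finger gene whose strand was not given, at 4 bases (chromosome 15, 68258769 to 68259068). It had 137.6 for EBF1wt and 142.3 for EBF1E271A. BC028528 at 12 bases, Lnx2 at 13, the glycerate kinase gene Glyctk at 14 and Arpc5 at 15 came next, each at a gene start. At 23 loci, boundaries of 2 or more protein-coding genes fell within 1 kb. Among the strongest of these by mean value were Copg2 with Tsga13, Gpr152 with Cabp4, Arpc5 with Rgl1, and Tada3 with Arpc4. At such loci the counts cannot be assigned to either gene.

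Scaled counts at the 298 regions ranged from 101.2 to 295.7 for EBF1wt, with a median of 151.0, and from 100.6 to 226.4 for EBF1E271A, with a median of 140.7. At 251 regions both values were below 200, at 39 only EBF1wt reached 200, and at 8 only EBF1E271A did. The median log2 ratio, after adding 1 to each value, was -0.10, against -0.15 over all 4116 regions. Moderate regions of the same values further inside genes (960) had -0.10, and those outside genes (793) -0.09. Regions at either gene boundary with both values at or above 200 (126) had -0.10. EBF1wt was the higher value at 66.4% of the 298 regions and at 66.8% of all. The scale sets this direction: when the libraries were given equal sums instead, the members' median log2 ratio was 0.12.

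None of the 298 regions differed by 2-fold or more. Among all regions, 4.06% were at least 2-fold lower with EBF1E271A and 0.632% at least 2-fold higher. At 1.5-fold, 9 members (3.02%), in 5 loci, were lower and 0 higher, against 13.4% and 2.96% of all regions. Since the rule removed regions with a low value in either library, these counts are smaller by construction and nothing is read from them.

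At most loci the ratio was within counting error of 1. At 122 of the 153 loci the interval of the ratio held 1, at 26 it lay below and at 5 above. Set against the median ratio of all regions, 0.901, 124 intervals held it, 10 lay below and 19 above. With equal sums, 5 intervals lay below 1 and 26 above, so the split of the 26 and 5 turns around with the scale. When the region of highest value was left out of the sums, 10 lay below 1 and 20 above.

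**Figure D4:**
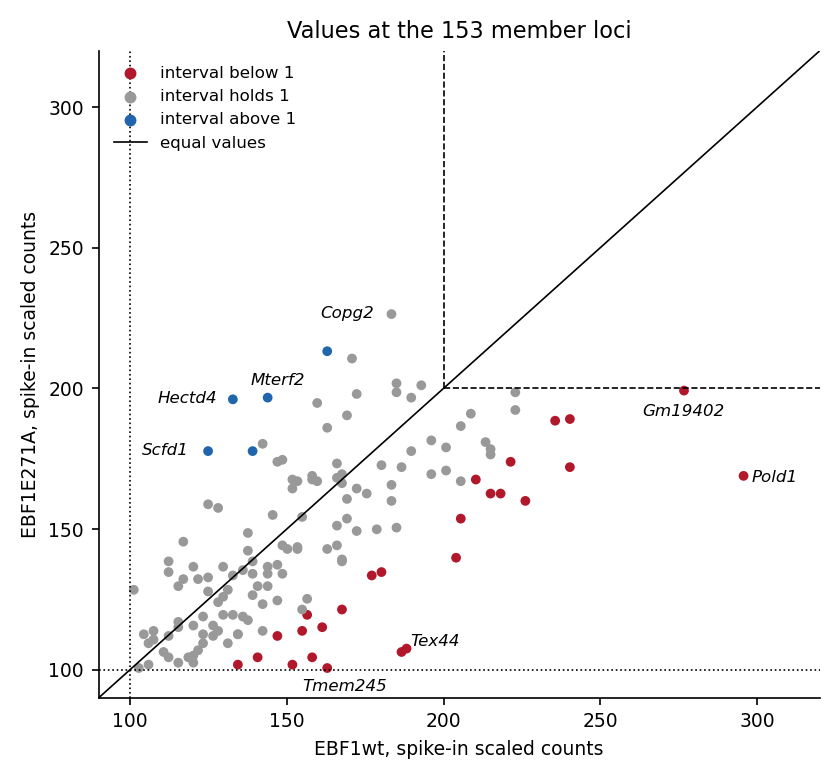
Spike-in scaled counts of EBF1wt (x axis) and EBF1E271A (y axis) at the 153 loci, 1 point per locus, with dotted lines at 100, dashed lines at 200 and a line of equal values. Red points (26) have a ratio interval below 1, blue points (5) above 1. Pold1 and Gm19402 have the highest EBF1wt values, 295.7 and 276.7.

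Nearly every locus was listed as a pair of regions. Of the 153 loci, 152 consist of 2 overlapping regions, whose starts differed by a median of 16 bases and at most 96. Both regions were members at 145 loci, and at 7 the other region had a value at or below 100. The log2 ratios of the 2 regions differed by a median of 0.02 and at most 0.16, and at 11 loci they fell on both sides of 1. Reads shared by the overlap make the pairs dependent, so each locus is given below by its member with the higher mean value.

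The lowest ratio was found 908 bases from Tex44, a testis-expressed gene, where EBF1wt had 186.6 and EBF1E271A 106.3 (ratio 0.570, 0.447 to 0.727). Pold1, the catalytic subunit of DNA polymerase delta, had 295.7 and 168.9, a ratio of 0.571 (0.472 to 0.692; chromosome 7, 44547787 to 44548086), and Trim16 188.2 and 107.5, a ratio of 0.571 (0.450 to 0.729). Tmem245 had 162.9 and 100.6, a ratio of 0.618 (0.479 to 0.799). The next were the end of Actl6b, a neuronal subunit of the BAF remodelling complex, also within 1 kb of Tfr2 (0.660), Selplg, which encodes the selectin ligand PSGL-1 (0.671), Cdk9 (0.685) and the lysosomal chloride transporter gene Clcn7 (0.708). All 8 intervals lay below 1 on the deposited scale.

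The highest ratio was found at Hectd4, a HECT-type ubiquitin ligase gene, where EBF1wt had 132.8 and EBF1E271A 196.1 (ratio 1.48, 1.16 to 1.90; chromosome 5, 121219242 to 121219541). Scfd1, a gene of vesicle fusion, had 124.9 and 177.7 (ratio 1.42, 1.11 to 1.85). Mterf2 followed with 1.37 (1.08 to 1.75), Tada3, an adaptor of histone acetyltransferase complexes, with 1.31 (1.05 to 1.65) and Klhl24, a Kelch-like gene, with 1.28 (1.00 to 1.64). Intervals that held 1 were found for Hdac10 (1.27), A630001G21Rik (1.27) and Exoc5, an exocyst subunit (1.27). All of these loci were picked as the extremes of 153.

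The highest mean values belonged to the end of Gm19402 (276.7 for EBF1wt, 199.2 for EBF1E271A), Pold1, Tut4, an RNA uridylyltransferase gene (240.3 and 189.1), and Fignl1, a gene of homologous recombination (235.6 and 188.5). Glyctk (222.9 and 198.6), Zswim3 (222.9 and 192.3), the end of the fetuin gene Fetub (240.3 and 172.0) and Copg2, a coatomer subunit (183.4 and 226.4), completed the 8. EBF1wt was the higher value at all of these but Copg2. At the limits of the rule, a region at Tmem245 was just inside with 100.6 for EBF1E271A, and regions at Eif4e2 and Fam110a were just outside with 99.9. At the upper limit, Gm19402 was inside with 199.2 for EBF1E271A, and Abi3 outside with a lower value of 207.5. By distance, 969 bases was the last inside and 1018 the first outside.

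Of 357 genes in 10 lists of lineage, signalling and housekeeping genes, 6 had such a region within 1 kb, and 5 of them are described. That is 1.68% of the listed genes, against 0.804% of all protein-coding genes (176 of 21900). The lists were chosen with earlier results of these data known, and this difference was not tested. At the share of all genes, a single list of 22 to 60 genes would hold few or none. The B cell surface list held 2 of 40, the pre-B cell receptor list 2 of 34, the B lineage transcription factor list 1 of 30 and the T lineage and innate lymphoid list 1 of 28. None of the 44 Notch pathway, 22 myeloid, 22 stroma and adipocyte, 52 small GTPase regulator, 60 chromatin regulator or 30 ribosome and housekeeping genes had one. At Cd79b, the signalling chain of the pre-B cell receptor, the values were 189.7 and 177.7 (ratio 0.937, 0.754 to 1.17). That locus lay 53 bases from a boundary of the gene, whose strand was not given. Cd37, a tetraspanin gene of B cells, had 117.0 and 132.2 at its end, which is also within 1 kb of Tead2 (ratio 1.13, 0.863 to 1.49). Pou2af1, the B cell coactivator OBF-1, had 189.7 and 196.7 (ratio 1.04, 0.837 to 1.29). Dok3, an adaptor that dampens B cell receptor signalling, had 208.7 and 191.0 (ratio 0.915, 0.744 to 1.13). Id2, an inhibitor of E proteins, had 196.1 and 169.5 (ratio 0.865, 0.696 to 1.08). All 5 intervals held 1.

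**Figure D5:**
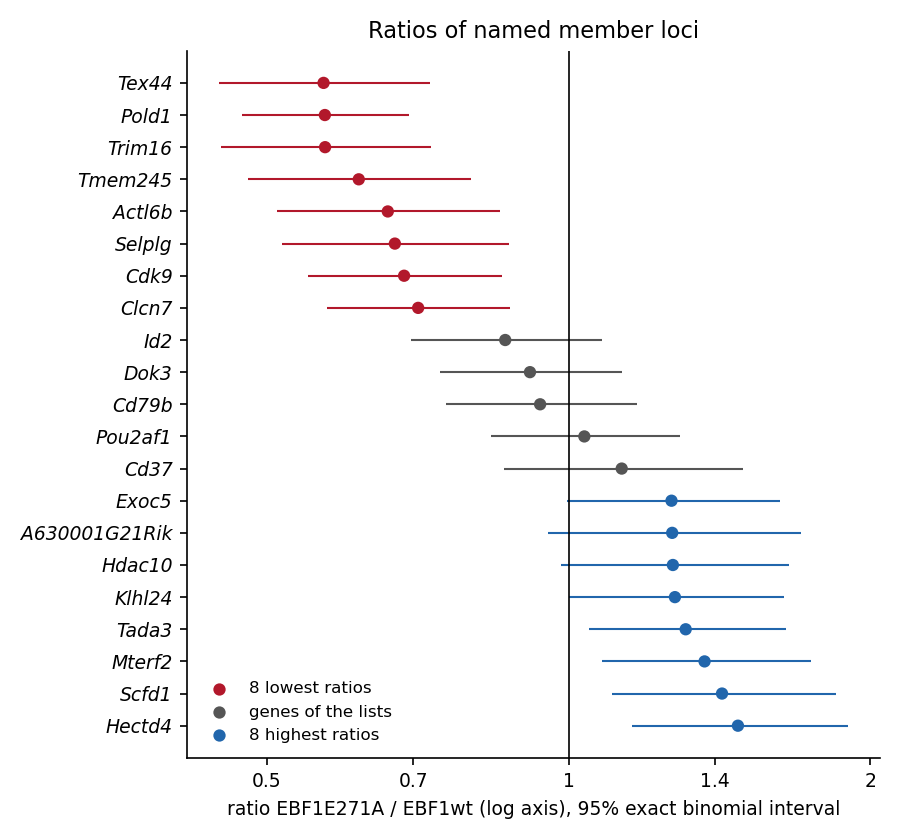
Ratio of EBF1E271A over EBF1wt (x axis, log scale) with its exact 95% interval for the 8 lowest (red), the 8 highest (blue) and the 5 list genes described (grey); the y axis names the nearest gene. The 5 list genes lie between 0.865 and 1.13, all with intervals that hold 1.

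The loci were also grouped by what the nearest gene is known to do, after their values were seen. Immune receptor, cytokine and signalling genes held 22 loci, with a median ratio of 0.919 against 0.926 over all 153. Their ratio was below 1 at 16 and at or above 1 at 6, against 104 and 49 of all 153 loci. The interval lay below 1 at 4, namely Selplg, Il4i1, Vsir and Sh2d3c, against 26 of the 153. Differences between the groups here and below were not tested. Il4i1, an amino acid oxidase induced by interleukin 4, had 161.3 and 115.1 (ratio 0.714), and Vsir, the inhibitory receptor VISTA, 154.9 and 113.8 (0.735). Cytokine and cytokine receptor loci had ratios of 0.800 at Osm, 0.838 at Lta, 0.830 at the end of Il6ra, 0.952 at the interferon gene Ifna4 and 0.996 at Il17ra. Examples among signalling genes were 0.797 at the adaptor gene Sh2d3c, 0.878 at the kinase gene Map4k1, 1.09 at the GTPase gene Rac2 and 1.22 at F2r.

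Transcription and chromatin genes held 20 loci, with a median ratio of 0.908, and Cdk9 had 2 of them. The locus 61 bases from the Cdk9 start had a ratio of 0.685 (0.549 to 0.858), and that 634 bases inside the gene, with 128.1 and 124.0, had 0.968 (0.744 to 1.27). Intervals below 1 were also found at the end of Cux1 (0.725) and at Hinfp, a regulator of histone genes (0.786). Gfi1b, a repressor of blood cell development, had 154.9 and 121.4 (0.784), and Nfe2, an erythroid and megakaryocyte factor, 112.3 and 138.5 (1.23), both with intervals that held 1. Tada3 was the only locus of this group with an interval above 1.

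Genes of DNA replication, repair and cell division held 11 loci, with a median ratio of 0.889 and 8 below 1, against 104 of all 153 loci. Besides Pold1 and Fignl1, the interval lay below 1 at Rmi1, which helps dissolve recombination intermediates (156.5 and 119.5, ratio 0.764). The checkpoint kinase gene Atr had 124.9 and 127.8 (ratio 1.02, 0.785 to 1.34), and Neil1, a DNA glycosylase gene, 172.3 and 149.3 (0.866).

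Genes of translation and RNA held 15 loci with a median ratio of 0.936. Intervals lay below 1 at Eif4e2 (0.742), Nsun5 (0.754), the end of Mrps21 (0.761) and Tut4 (0.787), and above 1 at Mterf2. The ribosomal protein gene Rpl23a had 0.839. Membrane traffic and cytoskeleton genes held 12 loci, 6 below 1 and 6 at or above it, with a median of 1.01. Within that group, Arpc5 (0.745) had an interval below 1, and Scfd1 one above it. The adhesion gene Vcl had 147.0 and 124.6 (0.847), and the COPII coat gene Sec24a 185.0 and 198.6 (1.07). Metabolism and transport genes held 13 loci with a median of 0.970, where Clcn7 and the sulfite oxidase gene Suox (0.747) had intervals below 1. The remaining 60 loci had a median of 0.926.

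On chromosome 5 between 130 and 140 Mb, 5 loci were found, all with a ratio below 1 on the deposited scale, as 68.0% of the 153 loci had. They lay at Actl6b (0.660), Cux1 (0.725), Nsun5 (0.754), Cyp2w1 (0.869) and Prkrip1 (0.996). Outside these bounds, chromosome 5 held Selplg (0.671), Bhlha15 (0.821), Lnx2 (0.978), Eif2ak1 (1.06) and Hectd4 (1.48). The difference was not tested. Loci were found on 20 chromosomes.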

How the data were processed

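The authors deposited a signal, spike-in scaled counts per region, with 1 column per EBF1 library; per the labels, human cells were mixed in for the scaling. The build GRCm38 and deepTools (3.3.2 and 3.5.0), MACS2 (2.2.7.1), bedtools (2.27.0), Bowtie2 (2.3.5.1) and SAMtools (1.10) come from the submitters' processing notes. The calling of regions and the computing of factors are not given in the sources used here. All values are whole multiples of 1.5811 (EBF1wt) and 0.6325 (EBF1E271A), within 0.001, and division gave the unscaled counts. Starts were read as counted from 0 and are printed from 1.

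Overlapping regions were merged into loci. Genes, strands and promoters came from RefSeq tables of GRCm38.p6. Motifs were searched as exact letters. Work was done in Python 3.11.15 with SciPy 1.17.1 and pandas 2.3.3, and the ratio, intervals and motif search were tested on simulated data.

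Named loci were the 8 lowest and 8 highest ratios, the 8 highest means and the 5 nearest to a gene boundary. The 5 strongest with several genes, all list genes, and those at the limits were added. Members and lists were chosen with earlier results of these data known. Role groups, the loci named within them and the printed promoters were chosen after values were seen. The input library was not analysed here, and a few loci that the naming rule selects are not reported here.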

Additional observations from a re-analysis of the deposited data

How the results depend on the processing

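The sign of the members' median log2 ratio depends on the scale: it was 0.12 (0.117) with equal sums over all regions and 0.05 (0.0491) without the region of highest value in the sums. On the deposited scale, a pseudocount of 10, loci counted once, windows of 0.5 and 2.5 kb, values above 120 and leaving out 130 to 140 Mb of chromosome 5 gave -0.11 to -0.08. Loci with a ratio below 1 numbered 104 as deposited, 44 with equal sums and 61 without the highest region. A 1.5-fold rule gave 9 lower members where the 2-fold rule gave 0, and the other settings run gave 0. A window of 2.5 kb gave 468 members and 74.4% at gene starts. With motif letters in the other order, chosen after seeing the data, the share of members' promoters was 9.76%. Requiring at least 20 CpG, also chosen then, moved the share of all promoters from 7.26% to 9.86%. No paired analysis was possible because each group has 1 library. Counts of 64 or more per region for EBF1wt limit the precision of single ratios, and the scale factors' error was not tested.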
